A study of Rattus norvegicus with 14 samples.

Results

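The genes described here are 10 transcripts of the circadian clock that act as repressors or outputs of its feedback loops: Per1, Per2, Per3, Cry1, Cry2, Nr1d1, Nr1d2, Bhlhe40, Ciart and Dbp. They were chosen by name, with earlier results of these data known, so shares set beside all genes below do not come from an independent choice. All 10 were found among the 22601 genes listed for each library. All 10 also passed the filter on low values, so each one was tested.

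The libraries were made from hippocampus of wild-type Wistar rats weighing 180 to 220 g. The design had 3 arms: a seizure model made with pentylenetetrazole (PTZ, a convulsant that blocks GABA-A receptors) and given Q808 (PTZ+Q808, n = 5), the same model given vehicle (PTZ, n = 5), and vehicle controls (n = 4). Q808 is known here by its code name alone. The sources used here do not give the doses, the sex of the rats, the interval between injection and sampling, or the time of day at sampling. The design text gives the same numbers of rats as there are libraries, and p-values measure the spread between these libraries.

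In mammals the proteins CLOCK and BMAL1 (encoded by Arntl) bind E-box sequences and switch on the Per and Cry genes, whose proteins come back to block CLOCK and BMAL1. The same activators switch on Nr1d1 and Nr1d2, which repress Arntl, and Bhlhe40, Ciart and Dbp, which add further repression or carry the rhythm to other genes. Per1 and Bhlhe40 are also known as genes that stimulated neurons induce quickly, and Per1 is induced by glucocorticoids.

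Values are FPKM, fragments per kilobase of transcript scaled by the size of the library, so levels can be compared between genes. Averaged over the 14 libraries, Dbp had the highest FPKM level of the 10 genes at 47.8, followed by Cry2 at 37.3, Bhlhe40 at 36.6 and Nr1d1 at 35.9. Per1 (14.3) and Nr1d2 (14.2) formed a middle pair, and Per2 (7.62), Ciart (7.25), Cry1 (4.14) and Per3 (3.40) were lowest. The ranges of neighbours in this order overlapped, except that the lowest Nr1d1 value lay above the highest of Per1 and the lowest Nr1d2 value above the highest of Per2. Within each of the 14 libraries Dbp was also above Cry2, most narrowly in PTZ replicate 4 with 47.82 against 47.19 FPKM. The smallest steps of the FPKM values returned whole fragment numbers, with library totals of 14989876 to 18179181 fragments. Ciart had the fewest fragments in a library, 99, which corresponds to a counting error of 10.1%. The other 9 genes had at least 148 fragments in every library.

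All 7 markers of the hippocampus were above 0 in every library. Slc17a7 lay between 524 FPKM (control replicate 2) and 821 FPKM, and Prox1 between 4.26 and 12.1 FPKM. Fibcd1 and Zbtb20 were low, from 0.689 to 3.54 and from 0.995 to 4.14 FPKM. Some libraries stood apart in markers of other tissue. Control replicate 2 had 29.4 FPKM of the striatal gene Drd2. Its summed level of 4 thalamic markers was 57.0 FPKM, against at most 20.5 in any other library. Most of that sum was Prkcd at 43.1 FPKM, while the thalamic marker Lhx9 was not raised there (0.69 FPKM). PTZ+Q808 replicate 3 had 395 FPKM of the pituitary gene Prl. The choroid plexus gene Ttr was lowest in PTZ+Q808 replicate 1, PTZ replicate 2 and control replicate 3, at 329, 113 and 54.5 FPKM. Of 4 markers of the suprachiasmatic nucleus, the seat of the central clock, the defining gene Six6 was listed at 0 in 10 libraries and reached at most 0.197 FPKM.

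The promoter windows of 5 of the genes are shown because these genes carry the calls below, and because CLOCK and BMAL1 are known to act through short motifs near the start site. Each window runs from 250 bases before the annotated start to 50 bases from it, 5′ to 3′ on the strand of the gene, taken from RefSeq on the build GRCr8. Capitals mark an E-box (CACGTG), its variant CACGTT or a D-box (TTANGTAA), searched on both strands.
Ciart, chr2:186112197-186112496, minus strand: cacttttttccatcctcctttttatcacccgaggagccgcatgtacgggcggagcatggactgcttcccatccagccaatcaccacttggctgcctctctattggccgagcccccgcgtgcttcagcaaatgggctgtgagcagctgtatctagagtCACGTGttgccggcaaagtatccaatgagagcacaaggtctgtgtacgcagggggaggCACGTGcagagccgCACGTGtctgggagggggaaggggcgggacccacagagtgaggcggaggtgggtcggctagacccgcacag
Bhlhe40, chr4:143174200-143174499, plus strand: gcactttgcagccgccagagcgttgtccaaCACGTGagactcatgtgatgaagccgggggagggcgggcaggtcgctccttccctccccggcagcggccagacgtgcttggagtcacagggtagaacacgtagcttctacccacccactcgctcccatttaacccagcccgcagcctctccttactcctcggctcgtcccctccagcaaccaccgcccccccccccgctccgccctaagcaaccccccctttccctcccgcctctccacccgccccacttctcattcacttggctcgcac
Cry2, chr3:98860388-98860687, minus strand: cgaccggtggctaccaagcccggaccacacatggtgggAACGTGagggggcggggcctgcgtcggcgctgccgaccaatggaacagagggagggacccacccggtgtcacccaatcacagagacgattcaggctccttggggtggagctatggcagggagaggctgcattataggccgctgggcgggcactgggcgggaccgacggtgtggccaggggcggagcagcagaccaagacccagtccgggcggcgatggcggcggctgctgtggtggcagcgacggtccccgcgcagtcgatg
Per1, chr10:54304126-54304425, plus strand: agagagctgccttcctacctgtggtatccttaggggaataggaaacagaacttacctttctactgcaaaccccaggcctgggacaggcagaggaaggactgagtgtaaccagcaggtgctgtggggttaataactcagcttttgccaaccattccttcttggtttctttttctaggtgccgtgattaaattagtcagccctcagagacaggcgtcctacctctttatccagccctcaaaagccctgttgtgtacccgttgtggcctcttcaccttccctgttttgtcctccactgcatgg
Nr1d2, chr15:9954784-9955083, plus strand: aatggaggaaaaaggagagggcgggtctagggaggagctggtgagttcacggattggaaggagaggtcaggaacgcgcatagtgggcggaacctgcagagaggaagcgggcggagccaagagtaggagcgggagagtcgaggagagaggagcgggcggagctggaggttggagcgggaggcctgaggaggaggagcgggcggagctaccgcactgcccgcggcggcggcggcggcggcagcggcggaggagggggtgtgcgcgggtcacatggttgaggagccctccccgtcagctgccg

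The Ciart window held 3 E-boxes, at -93 to -88, -35 to -30 and -21 to -16 relative to the start. The Bhlhe40 window held 1, at -220 to -215, and the Cry2 window held the variant on its minus strand at -212 to -207. These letters were not found in the Per1 and Nr1d2 windows. Sequence outside the windows, including any other start site, was not searched, so absence from a window does not mean absence from the gene. Among the 9 genes with a window, Nr1d1 was the only other one with an E-box, and Per2 and Nr1d1 had the variant, while Per2 also had a D-box. Of all 33469 windows of 27457 genes, 6.42% held an E-box, 4.83% the variant and 2.24% a D-box. The full cyclic AMP response element TGACGTCA (1.83% of all windows) and the core of the element bound by ROR and NR1D proteins, TAGGTCA (2.63%), were found in no window of the 9 genes. The shorter core TGACG was found in those of Per2, Per3 and Nr1d2, and in 21.2% of all windows. None of these motifs overlapped another in the 9 genes.

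**Figure D1:**
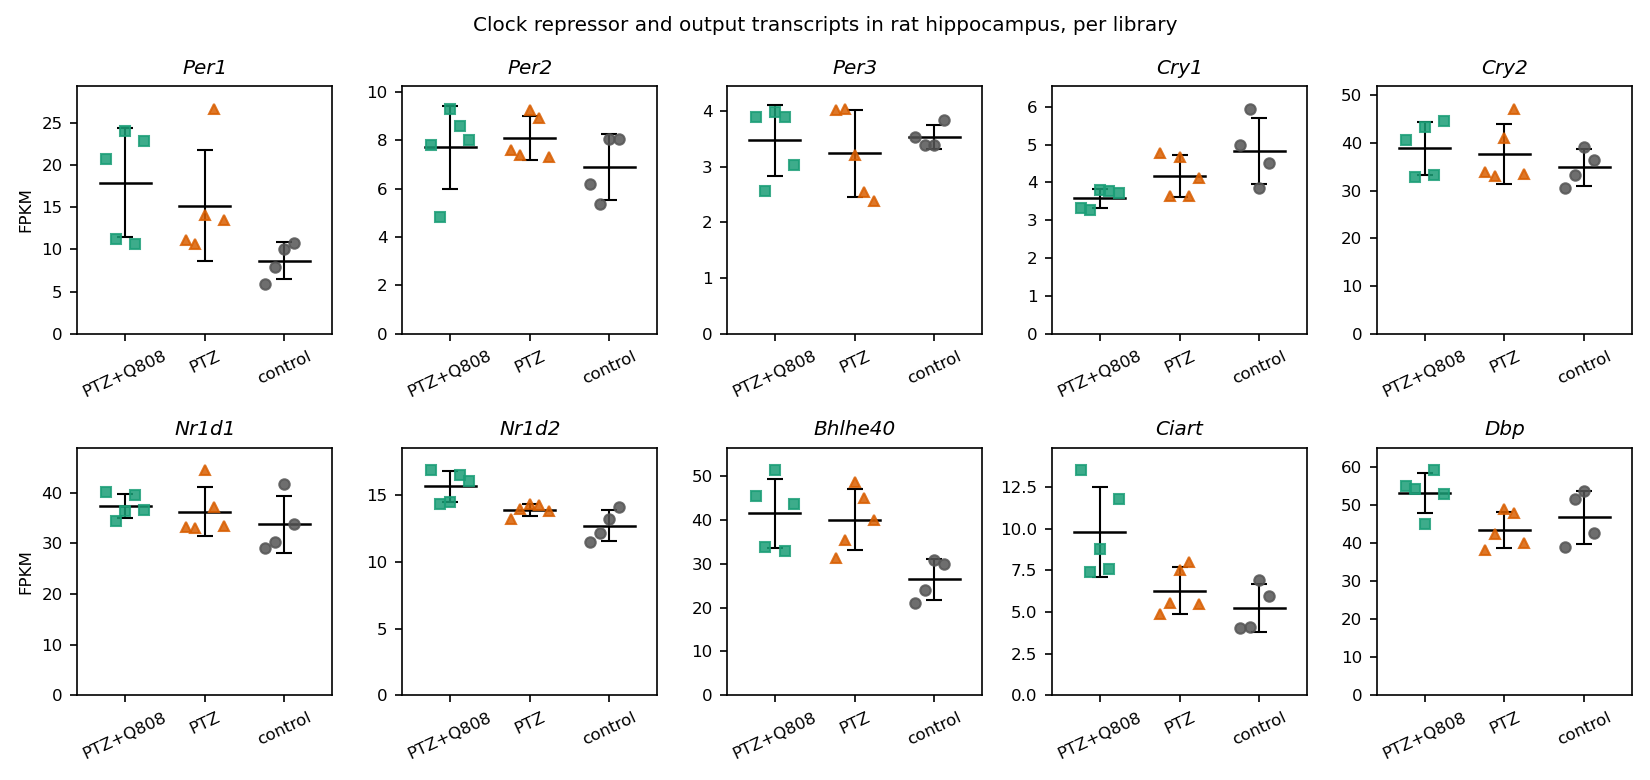
FPKM of the 10 clock genes in each library, 1 panel per gene with its own linear axis starting at 0; points are libraries of PTZ+Q808, PTZ and control, and bars are group means ± SD. Bhlhe40 lies at 31.4 FPKM or more in all PTZ and PTZ+Q808 libraries and at 30.8 or less in controls, while Per1 spreads from 10.6 to 26.7 FPKM within the PTZ group alone.

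The period genes encode the PER proteins that pair with CRY proteins in the repressing complex. Per1, the member most readily induced by stimulation, had 20.7, 11.3, 23.96, 10.7 and 22.9 FPKM in PTZ+Q808 replicates 1 to 5, 11.1, 10.6, 14.1, 26.7 and 13.4 FPKM in PTZ replicates 1 to 5, and 5.95, 7.96, 10.04 and 10.8 FPKM in the controls. In PTZ+Q808, replicates 1, 3 and 5 stood well above replicates 2 and 4, and in PTZ replicate 4 stood above the rest. All but 1 library of each PTZ arm exceeded the highest control. In bulk tissue, fewer cells of a type and less RNA per cell cannot be told apart, here and for the values that follow. The means were 17.9 ± 6.43 FPKM in PTZ+Q808, 15.2 ± 6.6 in PTZ and 8.68 ± 2.18 in controls (SD). On the log2(FPKM + 1) scale, Per1 differed by 0.92 between PTZ+Q808 and control (SE 0.285, 95% interval 0.31 to 1.53, limma adjusted p = 0.0898) and by 0.69 between PTZ and control (SE 0.285, 0.08 to 1.30, adjusted p = 0.581). Neither difference passed the threshold of 0.05, set over all 12744 genes tested. Between PTZ+Q808 and PTZ the difference was 0.23, with an interval of -0.35 to 0.80.

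Per2 and Per3 moved little. Per2, the other period gene needed for a normal rhythm in mice, averaged 7.71 ± 1.71 FPKM in PTZ+Q808, 8.09 ± 0.911 in PTZ and 6.92 ± 1.36 in controls (SD), and the groups overlapped. Its largest log2 difference was 0.21, between PTZ and control (SE 0.154, limma adjusted p = 0.739). Per3, the period gene whose loss disturbs the mouse rhythm least, averaged 3.47 ± 0.633, 3.24 ± 0.784 and 3.53 ± 0.212 FPKM in PTZ+Q808, PTZ and controls (SD). The Per3 controls stayed within 3.38 to 3.83 FPKM, whereas the PTZ+Q808 libraries ran from 2.57 to 3.97 and the PTZ libraries from 2.38 to 4.04.

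The cryptochromes are the main repressors of CLOCK and BMAL1, and neither passed in any comparison between groups. Cry1 had 3.32, 3.28, 3.81, 3.76 and 3.71 FPKM in PTZ+Q808, 4.77, 3.63, 4.67, 3.63 and 4.12 FPKM in PTZ, and 4.98, 5.95, 3.86 and 4.51 FPKM in controls. Every PTZ+Q808 library was below every control, the closest pair being 3.81 and 3.86 FPKM. The log2 difference between PTZ+Q808 and control was -0.34 (SE 0.103, interval -0.56 to -0.12, limma adjusted p = 0.0854), which did not pass. Cry1 rests on 148 to 299 fragments per library, a counting error of 5.78% to 8.22%. Between PTZ+Q808 and PTZ the Cry1 difference was -0.17 (interval -0.38 to 0.04), and between PTZ and control it was also -0.17 (adjusted p = 0.706).

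Cry2 averaged 38.9 ± 5.53 FPKM in PTZ+Q808, 37.7 ± 6.24 in PTZ and 34.8 ± 3.8 in controls (SD), with log2 differences of 0.15 (PTZ+Q808 versus control, limma adjusted p = 0.525), 0.05 (PTZ+Q808 versus PTZ, 0.966) and 0.10 (PTZ versus control, 0.847). Its groups overlapped throughout. Within groups, however, its libraries were ordered: 40.5, 43.3 and 44.6 FPKM in PTZ+Q808 replicates 1, 3 and 5 but 32.9 and 33.2 in replicates 2 and 4, and 41.1 and 47.2 FPKM in PTZ replicates 3 and 4 but 33.1 to 33.8 in PTZ replicates 1, 2 and 5. The high libraries were those that stood high for Per1, except PTZ replicate 3, which did not.

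Nr1d1 and Nr1d2 encode the nuclear receptors REV-ERB alpha and beta, which repress Arntl. Nr1d2 had 16.9, 14.4, 14.5, 16.6 and 16.1 FPKM in PTZ+Q808, 13.2, 14, 14.3, 14.3 and 13.8 FPKM in PTZ, and 11.5, 12.2, 13.2 and 14.1 FPKM in controls. The PTZ+Q808 libraries lay above every PTZ library and every control, by a narrow margin, since the lowest PTZ+Q808 value was 14.37 FPKM and the highest PTZ value 14.33. The counting error of these values was 2.73% to 3.25%. Nr1d2 was higher in PTZ+Q808 than in control by 0.28 on the log2 scale (SE 0.066, interval 0.14 to 0.42, limma adjusted p = 0.0387), with a ratio of means of 1.24. Against PTZ, the PTZ+Q808 libraries differed by 0.16 (SE 0.0623, interval 0.03 to 0.29, adjusted p = 0.76), and the PTZ libraries differed from control by 0.12 (interval -0.02 to 0.26, adjusted p = 0.663). Nr1d1 averaged 37.4 ± 2.4 FPKM in PTZ+Q808, 36.2 ± 4.88 in PTZ and 33.7 ± 5.67 in controls (SD) and did not pass in any comparison, its adjusted p in PTZ+Q808 versus control being 0.43. Nr1d1 overlaps Thra on the opposite strand, and the sources used here do not say whether fragments were counted by strand, so its values may include fragments of Thra.

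Bhlhe40 (also called DEC1) encodes a repressor that competes for E-boxes. It had 45.5, 33.9, 51.3, 32.9 and 43.6 FPKM in PTZ+Q808, 31.4, 35.3, 48.6, 44.9 and 39.9 FPKM in PTZ, and 21.1, 23.9, 30.8 and 30.0 FPKM in controls. Every library of both PTZ arms was above every control, and the PTZ arms overlapped each other. Bhlhe40 was higher in PTZ+Q808 than in control by 0.63 on the log2 scale (SE 0.156, interval 0.29 to 0.96, limma adjusted p = 0.0477), a ratio of means of 1.57. In PTZ against control the log2 difference was 0.58, with a ratio of means of 1.52 (SE 0.156, interval 0.25 to 0.91, adjusted p = 0.391), which did not pass over all genes. The arms given PTZ differed by 0.05 (interval -0.27 to 0.36).

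Ciart (also called CHRONO) encodes a repressor that binds BMAL1. It had 13.5, 7.41, 8.80, 7.57 and 11.8 FPKM in PTZ+Q808, 4.88, 5.52, 7.54, 8.02 and 5.47 FPKM in PTZ, and 4.03, 4.09, 6.90 and 5.98 FPKM in controls. The PTZ+Q808 libraries were all above the highest control, and replicates 1, 3 and 5 were also above the highest PTZ library. Ciart was higher in PTZ+Q808 than in control by 0.78 on the log2 scale (SE 0.193, interval 0.37 to 1.2, limma adjusted p = 0.0451), a ratio of means of 1.87. Its difference between PTZ+Q808 and PTZ was 0.56 (SE 0.182, interval 0.17 to 0.95), the smallest unadjusted p of the 10 genes in that comparison, and did not pass over all genes (adjusted p = 0.76). Between PTZ and control it differed by 0.23 (SE 0.193, adjusted p = 0.774).

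Dbp encodes a transcription factor that binds D-boxes and is a classical output of the clock. It had 54.8, 54.2, 44.9, 59.1 and 52.8 FPKM in PTZ+Q808, 38.1, 42.4, 48.9, 47.8 and 39.9 FPKM in PTZ, and 39.0, 51.6, 53.6 and 42.6 FPKM in controls. All PTZ+Q808 libraries but replicate 3 were above the highest PTZ library. The controls spanned 39.0 to 53.6 FPKM and overlapped both. The log2 difference was 0.29 between PTZ+Q808 and PTZ (SE 0.0992, interval 0.07 to 0.50, limma adjusted p = 0.76), 0.19 between PTZ+Q808 and control (adjusted p = 0.325) and -0.10 between PTZ and control (adjusted p = 0.832). None of these passed.

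**Figure D2:**
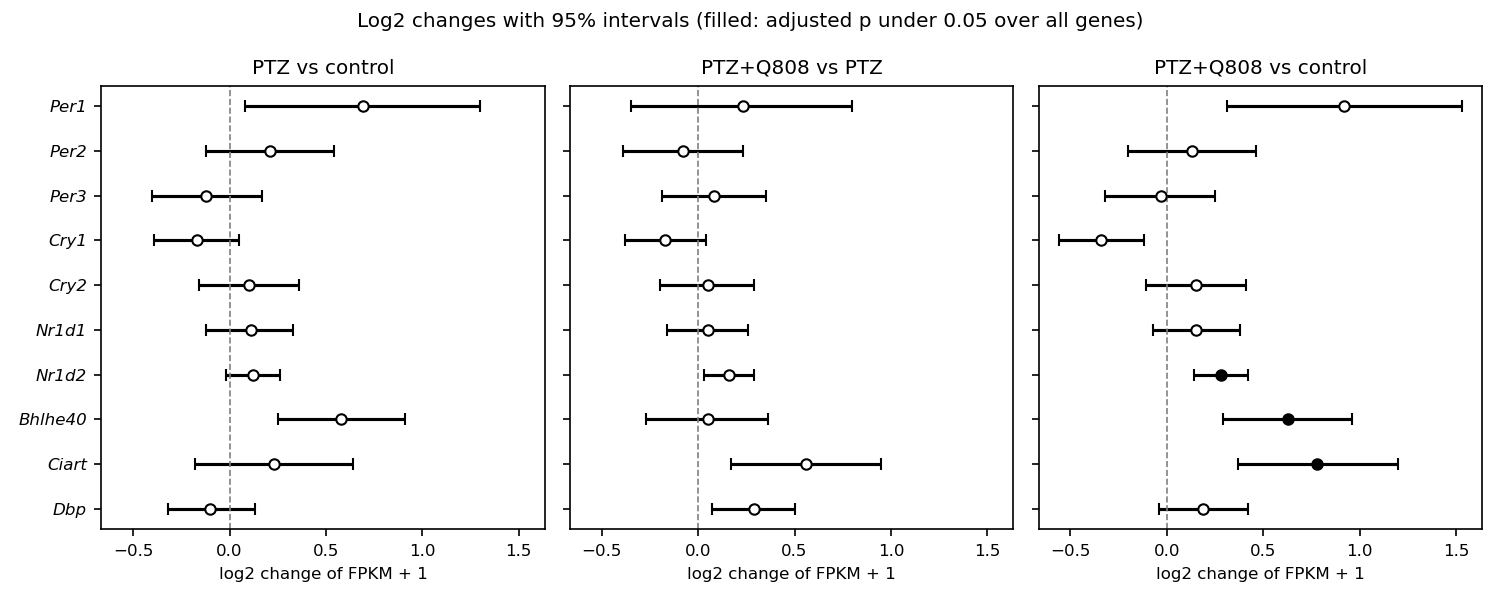
Log2 difference of each clock gene on the log2(FPKM + 1) scale with its 95% interval, in 1 panel for each of the 3 comparisons; filled points have an adjusted p under 0.05. Filled points appear only for Ciart (0.78), Bhlhe40 (0.63) and Nr1d2 (0.28), all in PTZ+Q808 versus control.

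Taken by comparison, PTZ versus control asks what the seizure model did. It gave no call among the 10 genes by limma, against 0.0314% of all 12744 genes. At an unadjusted p under 0.05 there were 2 of 10, Per1 and Bhlhe40, against 8.11% of all genes. Bhlhe40 was the 1 gene whose groups did not overlap, which 3.03% of all genes showed. The log2 differences of the 10 genes were positive for 7, as they were for 46.3% of all genes, and had a median of 0.11, while the median over all genes was -0.01. With voom on the recovered fragments there was also no call among them.

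PTZ+Q808 versus PTZ asks what Q808 changed in the model. No gene in the whole table was called by limma or by voom (0%), so none of the 10 was. Of the 10, Ciart, Dbp and Nr1d2 had an unadjusted p under 0.05, which 6.14% of all genes had. Nr1d2 was the 1 member without overlap between the groups, against 0.777% of all genes. The median log2 difference was 0.07 over the 10 genes, and -0.00 over all genes, and 8 of the 10 values were positive, against 48.3% of all genes.

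In PTZ+Q808 versus control, 3 of the 10 genes rose (Ciart, Bhlhe40 and Nr1d2) and none fell, against 2.87% of all genes called in either direction and 1.94% called higher. The groups did not overlap for 4 of the 10, these 3 and Cry1, which 8.91% of all genes showed. An unadjusted p under 0.05 was found for 5 of the 10, adding Per1 and Cry1, and for 20.7% of all genes. The median log2 difference was 0.17 over the 10 genes, 8 of them positive, and -0.02 over all genes, of which 44.7% were positive. The 3 comparisons share samples in pairs, so their results are not independent of each other.

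These 3 calls lie close to the threshold. None of them was made when any 1 of the 4 controls, PTZ replicate 2, or PTZ+Q808 replicate 1, 3 or 5 was left out. The same held without the 3 libraries lowest in Ttr, and without control replicate 2 and PTZ+Q808 replicate 3, the libraries highest in striatal and pituitary markers. Across all settings run, the log2 difference in PTZ+Q808 versus control remained positive for each of the 3, between 0.27 and 0.91 for Ciart, 0.23 and 0.70 for Bhlhe40, and 0.23 and 0.33 for Nr1d2.

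Markers of other tissue were also set beside this comparison. The summed level of the 4 meningeal markers (Col1a2, Col3a1, Dcn and Mgp, none at 0) ran from 47.0 to 108 FPKM in PTZ+Q808, from 46.4 to 140 in PTZ and from 44.3 to 60.7 in controls. PTZ+Q808 replicates 4 and 5, at 47.0 and 59.3 FPKM, lay within the control range. In PTZ+Q808 versus control the log2 difference was 1.45 for Col1a2, 0.80 for Col3a1, 0.72 for Dcn and 0.50 for Mgp. None of the 4 meningeal markers was called there, the smallest limma adjusted p being 0.114, for Dcn. With the meningeal mean as a covariate, the differences between PTZ+Q808 and control were 0.84 for Ciart, 0.66 for Bhlhe40 and 0.33 for Nr1d2, and none was called. The summed level of the 4 suprachiasmatic markers was 15.6 to 22.2 FPKM in PTZ+Q808, 10.5 to 17.0 in PTZ and 8.57 to 13.3 in controls. All PTZ+Q808 libraries thus exceeded all controls, but Vip made up most of the sum. Vip alone was 13.8 to 16.8 FPKM in PTZ+Q808, 9.01 to 15.6 in PTZ and 7.99 to 12.6 in controls. Avp was highest in PTZ+Q808 replicates 3 and 4, at 7.3 and 8.25 FPKM. Six6 was at or near 0, and Lhx1 reached at most 1.15 FPKM. Between PTZ+Q808 and control the log2 difference was 0.52 for Vip (limma adjusted p = 0.0752) and 1.23 for Avp (adjusted p = 0.106). Against PTZ it was 0.20 for Vip (adjusted p = 0.864) and 1.33 for Avp (adjusted p = 0.76), and none of these passed. The part of the suprachiasmatic markers in the 3 calls was not tested.

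The spread of Per1 and Cry2 inside each arm was set beside 13 immediate early genes, which neurons transcribe within minutes of firing and none of which is a clock gene of the set. Their mean log2(FPKM + 1) was 6.33, 4.59, 6.13, 4.21 and 6.50 in PTZ+Q808 replicates 1 to 5, 5.07, 4.90, 5.85, 6.59 and 4.55 in PTZ replicates 1 to 5, and 3.45, 3.84, 4.32 and 4.04 in controls. For Fos alone the values were 127, 38.2, 126, 27.0 and 142 FPKM in PTZ+Q808, 62.8, 43.2, 113, 175 and 38.8 FPKM in PTZ, and 11.2, 13.3, 23.4 and 17.0 FPKM in controls. PTZ+Q808 replicates 1, 3 and 5 and PTZ replicate 4 were high for Fos, Per1 and Cry2 alike. PTZ replicate 3 was high for Fos and Cry2 while its Per1 level, 14.1 FPKM, was near that of PTZ replicate 5, 13.4 FPKM, which was low for Fos.

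A slope on this mean was fitted for every gene with terms for the 3 groups, so that it describes libraries of the same arm. It was called for 3 of the 10 clock genes, all with a positive slope, against 0.676% of 12731 genes in either direction and 0.558% with a positive one. An unadjusted p under 0.05 was found for 4 of the 10 and for 9.83% of these genes. The log2 level per unit of the immediate early mean changed by 0.52 for Per1 (SE 0.0706, interval 0.37 to 0.67, limma adjusted p = 0.00169), by 0.22 for Cry2 (SE 0.0289, interval 0.16 to 0.29, adjusted p = 0.00113) and by 0.31 for Ciart (SE 0.0644, interval 0.17 to 0.45, adjusted p = 0.0399). The slopes of Per1 and Cry2 remained called in all 27 alternatives, with values of 0.46 to 0.57 for Per1 and 0.20 to 0.25 for Cry2. That of Ciart lost its call in 17 of the 27, its adjusted p rising to 0.372, and the libraries whose removal ended it were control replicates 1, 3 and 4, every PTZ replicate, and PTZ+Q808 replicates 1, 2, 4 and 5.

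Bhlhe40 had a slope of 0.24 (SE 0.0572, limma adjusted p = 0.092) and Per2 one of 0.15 (adjusted p = 0.541), and neither passed. The other 5 genes lay nearer to 0, with slopes of 0.08 for Nr1d1, 0.03 for Nr1d2, 0.03 for Dbp, -0.03 for Cry1 and -0.01 for Per3 and adjusted p of 0.72 or more. Fitted within each arm with no test, the slope of Per1 was 0.49 in PTZ+Q808, 0.52 in PTZ and 0.85 in controls, and that of Cry2 was 0.18, 0.27 and 0.42 in the same arms. Nr1d2 had 0.01 in PTZ+Q808, 0.03 in PTZ and 0.27 in controls. Steep slopes in controls were not particular to Per1 and Cry2. They were 0.81 for Ciart, 0.66 for Bhlhe40, 0.57 for Nr1d1, 0.48 for Per2, 0.42 for Dbp, -0.38 for Cry1 and -0.01 for Per3. For every gene but Per3 the slope was smaller in size in both PTZ arms than in controls, so the common slope joins unlike arms.

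With the immediate early mean as a covariate, the log2 difference between PTZ+Q808 and control was 0.27 for Ciart (adjusted p = 0.587), 0.23 for Bhlhe40 (0.597) and 0.23 for Nr1d2 (0.364), where the fit without it gave 0.78, 0.63 and 0.28, and none was called. The immediate early mean itself differs between the arms, so the share of each difference that goes with the arm and the share that goes with this mean cannot be told apart.

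**Figure D3:**
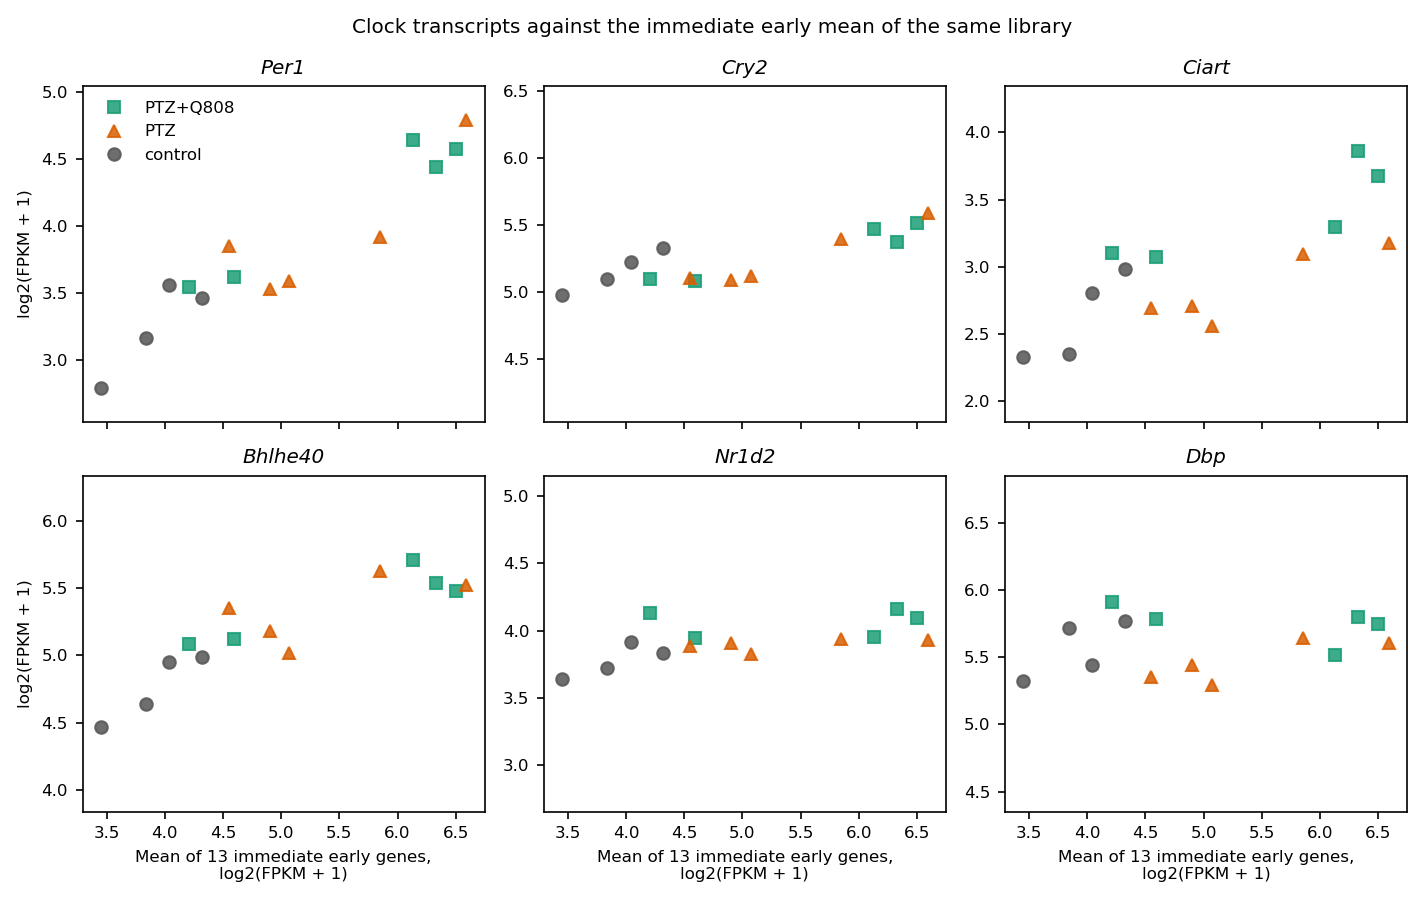
Log2(FPKM + 1) of Per1, Cry2, Ciart, Bhlhe40, Nr1d2 and Dbp (vertical axes of equal width) against the mean log2(FPKM + 1) of 13 immediate early genes (horizontal axis); each point is a library, coloured by PTZ+Q808, PTZ and control. Per1 climbs along the axis within every arm (common slope 0.52). Nr1d2 has a common slope of 0.03 and is nearly flat in both PTZ arms but not in controls (0.27), with the PTZ+Q808 libraries above the PTZ libraries.

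Per1 is also a glucocorticoid-induced gene, so the same fit was made on the mean of 9 other glucocorticoid-induced genes. Its range was 4.29 to 4.63 in PTZ+Q808, 4.13 to 4.85 in PTZ and 3.73 to 4.36 in controls on the log2 scale. None of the 10 clock genes had a called slope by limma or voom, where 0.00785% of 12735 genes did, and 1 had an unadjusted p under 0.05, against 7.41% of genes. That gene was Per3, with a slope of -0.56 (SE 0.208, limma adjusted p = 0.647). The slope of Per1 was 0.97 with a wide error (SE 0.483, limma adjusted p = 0.676).

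The likeness of patterns was measured as the root mean square difference of values standardised over the 14 libraries, where 0 is an identical pattern. Among the 8328 genes with a mean of at least 5 FPKM, those closest to Per1 were Tiparp (0.25), Irs2 (0.267), Nfil3 (0.27), Csrnp1 (0.272) and Junb (0.273), against a median of 1.41 over all. Among the same genes outside the set, Bhlhe40 was closest to Ppm1k (0.381), Fos (0.402), Nr4a1 (0.404), Dusp6 (0.415) and Npas4 (0.452). The genes outside the set closest to Ciart were Mt1 (0.461), Ntm (0.47), Rasl11b (0.493), Btbd8 (0.526) and Rnf39 (0.533). Those closest to Nr1d2 were Rnf180 (0.512), Strbp (0.53), Camta1 (0.552), Acot9 (0.563) and Nap1l2 (0.583). Dbp had no equally close gene, the nearest being Srpk2 (0.603), Mphosph6 (0.607), Plcl2 (0.717), Ctnna2 (0.767) and Med29 (0.783).

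Among the 10 clock genes themselves, the closest pairs were Per1 with Bhlhe40 (0.428), Per1 with Cry2 (0.473) and Nr1d2 with Ciart (0.488). The 4 most unlike pairs all involved Cry1, with 1.79 to Ciart, 1.79 to Nr1d2, 1.72 to Bhlhe40 and 1.71 to Per1.

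**Figure D4:**
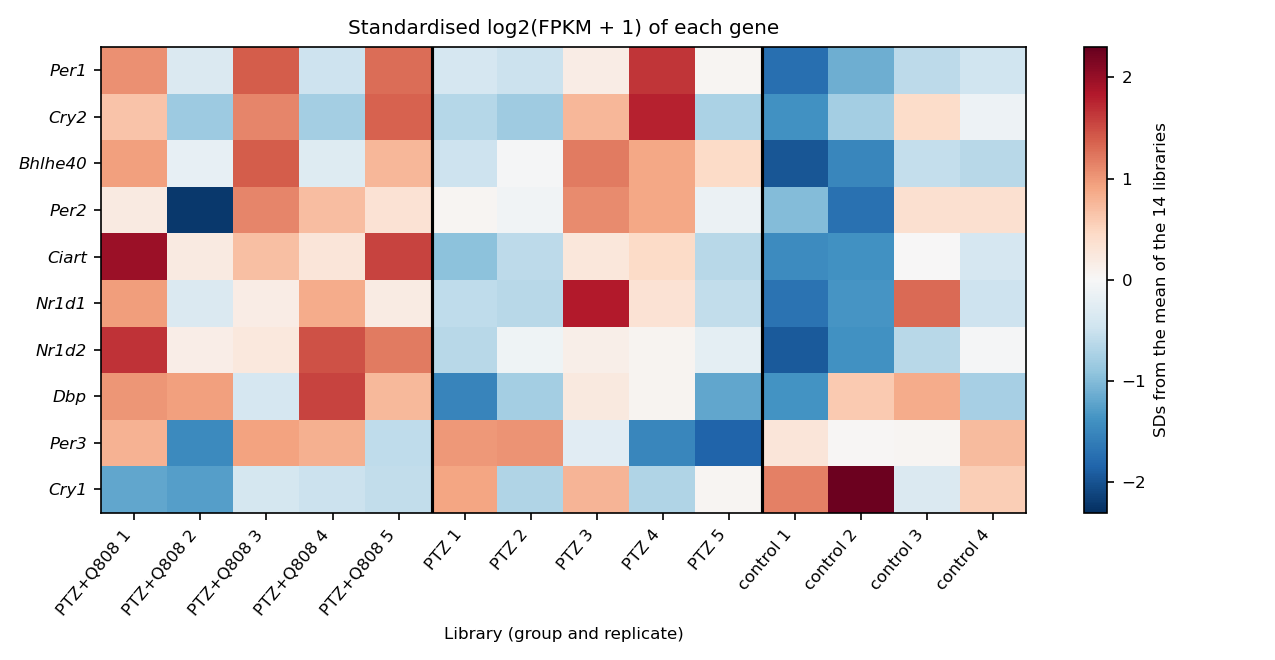
Standardised log2(FPKM + 1) of the 10 clock genes (rows) in the 14 libraries (columns, PTZ+Q808, PTZ and control); colour gives standard deviations from the gene's mean over all libraries. Per1, Cry2 and Bhlhe40 share high columns in PTZ+Q808 replicates 1, 3 and 5 and in PTZ replicate 4, while Cry1 is highest in control replicates 1 and 2.

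The rest of the clock was described by 26 further genes, of which 23 passed the filter on low values and were tested. None of the 23 was called by limma in any of the 3 comparisons. Their median log2 difference was 0.07 in PTZ against control, -0.03 in PTZ+Q808 against PTZ, and 0.05 where PTZ+Q808 was set against control. The activators changed little: Clock, whose protein pairs with BMAL1, averaged 6.19 FPKM in PTZ+Q808, 6.47 in PTZ and 5.86 in controls, and its relative Npas2 averaged 12, 12.3 and 10.8 FPKM in those arms. Arntl, the gene that NR1D proteins repress, averaged 10.2 ± 0.749 FPKM in PTZ+Q808, 11.7 ± 0.827 in PTZ and 11.6 ± 1.13 in controls (SD), and its difference of -0.18 between PTZ+Q808 and PTZ did not pass (adjusted p = 0.76). In that comparison Tipin, a replication fork protein that partners Timeless, had 0.28 (adjusted p = 0.776), Bhlhe41, the close relative of Bhlhe40, had 0.18 (0.828), and Nampt, an enzyme of NAD synthesis under clock control, had 0.10 (0.838).

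Nfil3, a repressor of D-box genes, and Sik1, a kinase induced by cyclic AMP signalling that limits light resetting of the clock in mice, were among the 4 other clock genes with the smallest p in both comparisons with control. Nfil3 averaged 7.25 ± 2.23 FPKM in PTZ+Q808, 6.04 ± 2.23 in PTZ and 3.73 ± 0.397 in controls, and Sik1 averaged 6.48 ± 2.03, 6.87 ± 2.45 and 2.8 ± 0.724 FPKM in the same arms (SD). Neither passed in PTZ+Q808 versus control (Nfil3 0.76, limma adjusted p = 0.0724; Sik1 0.95, adjusted p = 0.0712) or in PTZ versus control (Nfil3 0.53, adjusted p = 0.581; Sik1 1.00, adjusted p = 0.394). They were the 2 of the 23 genes with a called slope on the immediate early mean, 0.40 for Nfil3 (adjusted p = 0.00127) and 0.45 for Sik1 (adjusted p = 0.0252). Tipin (0.47, adjusted p = 0.0655) and Nampt (0.20, adjusted p = 0.0812) completed the 4 smallest p in PTZ+Q808 versus control, and Fbxl21, which encodes a ligase subunit acting on CRY proteins, (-0.21, adjusted p = 0.648) and Clock (0.12, adjusted p = 0.663) those in PTZ versus control. The D-box factors related to Dbp were level, with Tef at 70.5 FPKM in PTZ+Q808, 73.9 in PTZ and 77.0 in controls, and Hlf at 23.1, 22.7 and 21.4 FPKM in those arms.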

How the data were processed

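Hippocampal mRNA libraries of 14 rats were analysed, grouped by the labels. The deposited values are FPKM per gene, computed by the authors per the file headers. The submitters' processing notes name SAMtools, StringTie, Bowtie2, HISAT2, Trimmomatic, HTSeq, DESeq and Cufflinks, with neither role nor version, and the genome build was not given in the sources used here. The 12744 genes reaching an FPKM of 1 in 4 or more samples were transformed as log2(FPKM + 1), a scale that understates changes of low genes, and 1 limma model (version 3.58.1, R 4.3.3) took in all 3 groups with a mean-dependent prior variance and 11 residual degrees of freedom. Tests were two-sided, with Benjamini-Hochberg adjustment over all genes of a comparison and calls under 0.05. The fit was tested on simulated data. Slopes used the same fit with a list mean added, which left 10 residual degrees of freedom. The list's own genes stayed in the fit and in the adjustment, and were left out only of the counts over all genes. All 13 immediate early genes were called on their own mean, which lowers the adjusted p of other genes in that fit. Multiples of 1 fragment were recovered from the FPKM steps for 17443 of the 17448 genes above 0 in at least 5 libraries (99.97%, tolerance 0.02 fragment), and these served for depth and for voom. Intervals on fragments cover counting error only. Library totals ran from 14989876 to 18179181 fragments, if the steps found are single fragments and not a common multiple of them.

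All 10 clock genes are named in every comparison. Of the other clock genes, those called and otherwise the 4 with the smallest p per comparison are named. Neighbours are the 5 genes most alike outside the 10 clock genes, without placeholder symbols, for Per1, Bhlhe40, Dbp and each clock gene called between groups. The genes, lists and markers were chosen with earlier results of these data known. Alternatives covered scaling, filters, pseudocount, variance model, replicate block and each library left out. Those with voom and with the immediate early or meningeal mean as a covariate were added after the data were seen. Promoter windows came from RefSeq (GRCr8), where 9 of the 10 genes were matched.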

Additional observations from a re-analysis of the deposited data

Results flagged for a closer look

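Of 30 groups examined (10 genes in 3 arms), 1 held a library far from the others. Per2 in PTZ+Q808 replicate 2 had 4.83 FPKM, while the nearest of the other PTZ+Q808 libraries had 7.8 and the highest 9.31 FPKM. The gap made up 0.722 of the range of the arm on the log2(FPKM + 1) scale, on which groups were examined, and less of it in FPKM. Chance flags about 1 in 20 groups. Without this library the log2 difference of Per2 between PTZ+Q808 and PTZ was 0.06, where the 14 libraries gave -0.08, and neither passed.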

How the results depend on the processing

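With all 14 libraries, 3 of the 10 genes were called in PTZ+Q808 versus control. The count was 0 with no filter on low values, with the replicate block, without the 3 libraries lowest in Ttr, without the libraries highest in striatal markers and Prl, with only the groups compared, and with the immediate early or the meningeal mean as a covariate. It was 2 with median-of-ratios scaling, where Bhlhe40 was lost, 2 with voom, where Ciart was lost, 1 with equal totals per library, 1 with quantile normalization, and 5 with weights per library or with adjusted p under 0.1. With 1 library left out it ran from 0 to 4. Without PTZ replicate 5 it was 1, without PTZ replicate 4 it was 2, and without PTZ+Q808 replicate 4, where Per1 was added, it was 4. The counts in PTZ versus control, in PTZ+Q808 versus PTZ and for the glucocorticoid slope were 0 under every alternative run.

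Of 1430 values of single genes under alternatives, 1325 kept their direction and side of the threshold, 71 lost a call, 6 gained one and 28 changed sign. With the immediate early covariate, PTZ versus control turned to -0.08 for Per1, -0.02 for Per2, -0.23 for Cry2, -0.02 for Nr1d1 and -0.24 for Ciart, and PTZ+Q808 versus control to -0.12 for Per2 and -0.22 for Cry2. In PTZ+Q808 versus PTZ, Cry2 (-0.01), Nr1d1 (-0.01) and Bhlhe40 (-0.03) turned without the 3 libraries lowest in Ttr, and Bhlhe40 (-0.04) without the striatal and Prl libraries, where Per2 in PTZ+Q808 versus control was -0.04. Quantile normalization gave Per3 an immediate early slope of 0.01. With 1 library left out, PTZ+Q808 versus PTZ ranged from -0.04 to 0.12 for Bhlhe40, -0.15 to 0.06 for Per2 and -0.00 to 0.13 for Cry2, Per3 in PTZ+Q808 versus control from -0.07 to 0.05, the immediate early slope from -0.07 to 0.05 for Per3 and -0.05 to 0.00 for Cry1, and the glucocorticoid slope of Dbp from -0.02 to 0.29. None of the values that changed sign had been called, and the cause of these changes was not tested.

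Replicate numbers are shared between the arms, but deviations of same-numbered libraries correlated by -0.28 to 0.143. Of 14 libraries, 0 matched best with their own number, so no pairing by number was seen. This check cannot settle whether same-numbered libraries were handled together. It covers all genes tested, whose deviations also carry differences in tissue content between libraries. The replicate block lowered the count in PTZ+Q808 versus control to 0, with Per3 at 0.02, and gave Per2 a glucocorticoid slope of -0.49. Low fragment numbers limit Ciart, Cry1 and Per3 most.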
